A study of Homo sapiens with 59 samples.

Results

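The comparison rests on 6 RNA libraries of A549 cells: 3 from cells given the ethanol extract of Bupleuri Radix at 190 µg/mL, the high dose, and 3 from cells given it at 7.6 µg/mL, the low dose. They were chosen by dose and extract alone, as 6 of the 59 libraries of the series, and 16306 of the 60675 genes in the deposited table had enough counts for a test. A549 is an established human non-small cell lung carcinoma line, and Bupleuri Radix is the dried root of Bupleurum, a medicine of East Asian practice. All groups were harvested after 24 h. The medium dose of 38 µg/mL (3 libraries) entered the same statistical fit, 3 libraries of the DMSO vehicle are given as background, and the extract of Aconiti Lateralis Radix Preparata at 500 and 20 µg/mL (3 libraries each, beside 2 of a medium dose) serves as a second dose contrast. The labels give 0.1% DMSO for the vehicle. The question was which genes set the higher dose apart from the lower dose of the same extract.

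Lysosomes are the acidic compartments in which proteins, lipids and sugar chains are broken down, and their membranes carry the Rag GTPases, which with the folliculin complex report amino acid supply to the kinase mTORC1. When that signal falls or lysosomes are stressed, the transcription factors TFEB, TFE3 and MITF enter the nucleus and bind a short palindromic DNA element found before many lysosomal genes. Cholesterol released from lysosomes feeds into separate controls: the transcription factor SREBP2 raises synthesis when membrane sterol is short, and the LXR receptors raise export when oxidised sterols are plentiful.

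Each of the 9 Bupleuri Radix libraries held 21607241 to 33916646 expected counts, and values below are TMM-scaled CPM, counts relative to the library total. Within each dose the replicate libraries differed by more than sampling noise, with a chi-square per degree of freedom of at least 3.61. The labels do not say whether replicates were separate cultures, so p-values measure only the spread between these libraries. On the first principal component of the 9 libraries, which held 21.6% of the variance, the high dose libraries had -22.9 to -17.7 and the medium and low dose libraries 5.27 to 13.9. Medium dose replicate 1 stood apart on the second component, at 29.5. Mitochondrial rRNA took 3.09% to 3.24% of counts at the high dose and 2.81% to 3.08% at the low dose, against 2.24% to 2.43% in vehicle, and its part in the results was not tested. Of 10 genes listed as A549 markers 7 were tested, while NKX2-1, SFTPB and SFTPC stayed below 1 CPM. Of 15 marker genes of blood, vessel, stromal and muscle cells, 13 were below 1 CPM in every high dose library and 14 in every low dose library.

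Against the low dose, the high dose raised genes of lysosomes, of the Rag and folliculin complexes and of cholesterol synthesis, and lowered targets of the LXR receptors and genes of fibrinogen and the actin cytoskeleton. In the fit of all 59 libraries described below, most of the actin calls were lost and the fibrinogen calls were kept. edgeR's quasi-likelihood test called 1581 genes at an adjusted p below 0.05, which is 9.7% of those tested. There were 891 called higher (5.46%) and 690 called lower (4.23%), and the median log2 change over all tested genes was -0.0014. Most changes were small: 47 of the higher and 31 of the lower genes differed by 2-fold or more, and the median size of a called change was 0.34 upward and 0.30 downward on the log2 scale. Without any test, the 3 high dose libraries lay entirely beyond the 3 low dose libraries in 3992 genes (24.5%). For the 15 largest rises and 15 largest falls named below, this was a condition of their choice. A missing overlap in those genes is therefore no further evidence. When the spread was taken from all 59 libraries, 294 genes were called, and 1010 without 4 libraries of other extracts that have many antisense reads. The counts of list members below are followed by the count in the fit of all 59 libraries wherever that is more than 1.5 times lower, and the lists were drawn up with earlier results of these data known. The background for each list is the share called over all tested genes, 9.7% in all, 5.46% higher and 4.23% lower.

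**Figure D1:**
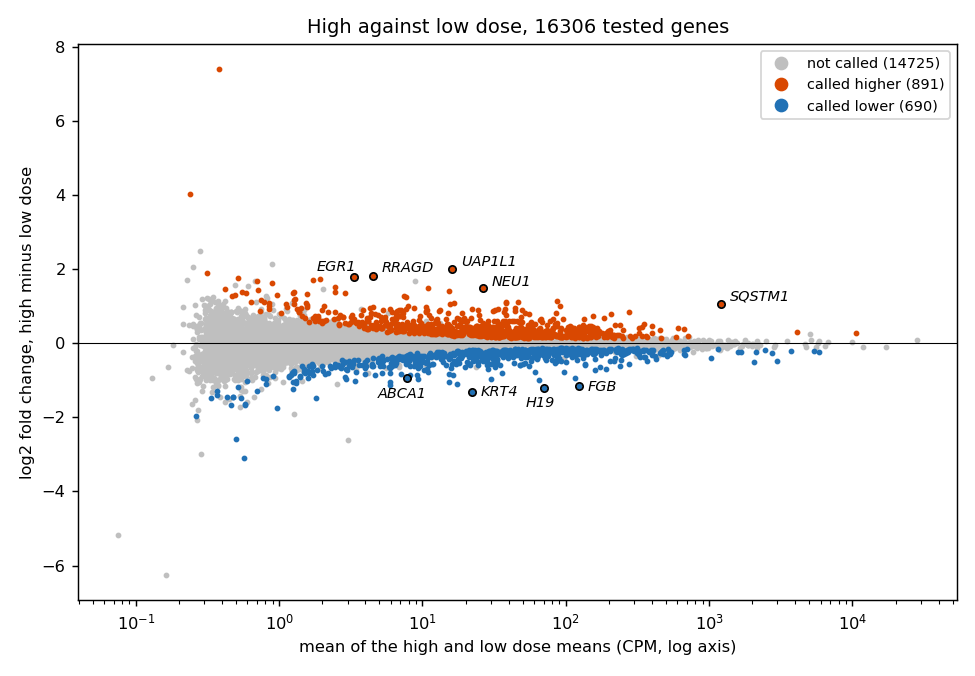
Log2 fold change of the high minus the low dose (vertical axis) against the mean level in CPM (horizontal, log axis) for all 16306 tested genes, coloured by call. Called genes lie on both sides at low and at high levels, the points far from 0 at the left have few counts, and the circled genes are described in the text.

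The step from low to medium dose gave 0 called genes by edgeR (0.0%). Before adjustment 485 (2.97%) had a p below 0.05, DESeq2 called 2 and a fit without a filter on low counts called 101. Between the high and the medium dose 1242 genes were called (7.62%), 755 higher (4.63%) and 487 lower (2.99%). These comparisons share libraries with the main contrast, so they are given side by side only. The AhR target CYP1B1, for example, was at 59.2, 61.5 and 61.7 CPM at the low dose, 71.2, 71.4 and 71.6 at the medium dose and 121, 121 and 123 at the high dose. The plot of CPM by dose shows that pattern beside genes such as NEU1, whose medium dose libraries (13.5 to 15.0 CPM) overlapped with those of the low dose (13.1 to 14.6 CPM).

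**Figure D2:**
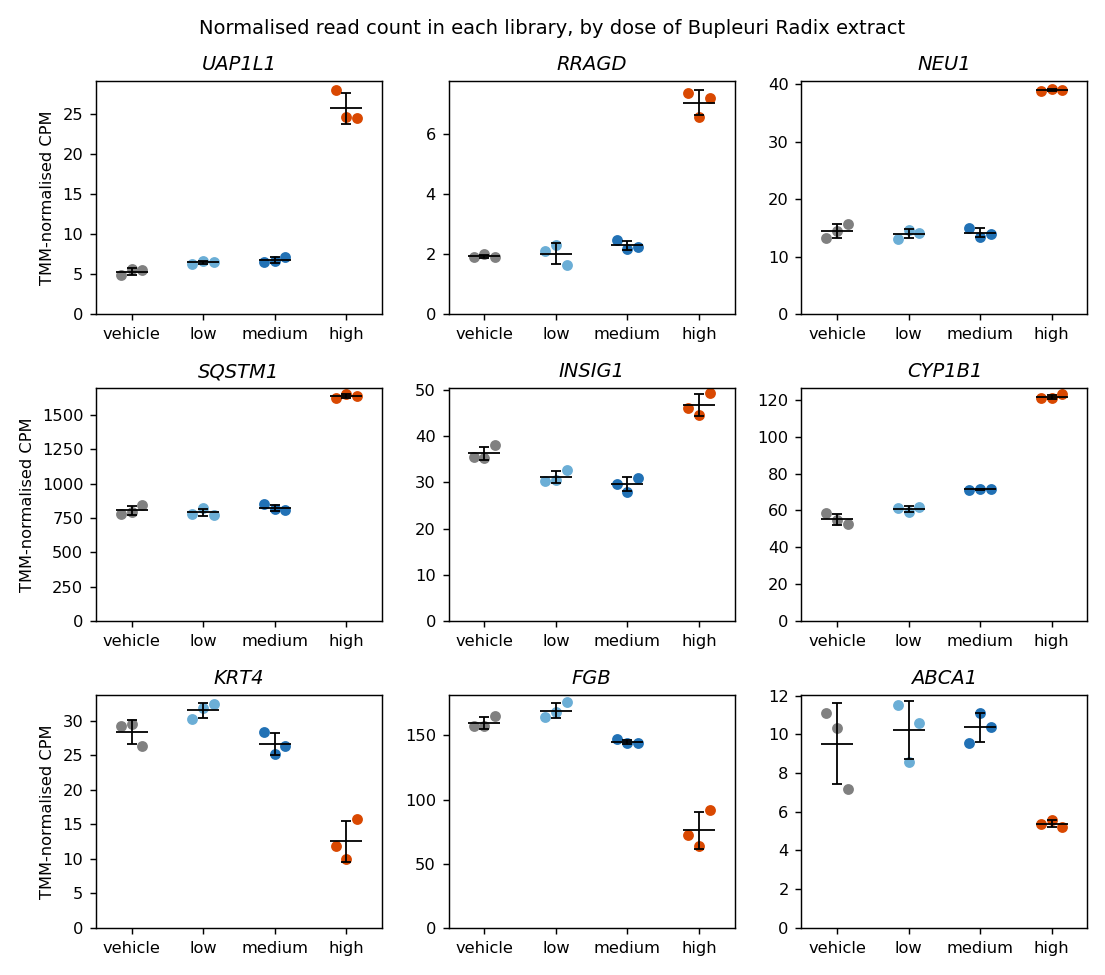
Normalised read count (CPM, vertical axis from 0) of 9 genes in each library of vehicle and of the low, medium and high dose, 3 libraries per group. Points are libraries and bars the mean with its SD, and in every panel the 3 high dose libraries lie outside the range of the other 9.

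The Rag GTPases and the folliculin complex held some of the strongest rises. RRAGD, 1 of 4 Rag GTPase genes, was at 7.37, 6.56 and 7.18 CPM at the high dose against 2.10, 2.30 and 1.63 at the low dose. The groups did not overlap, and the log2 change was 1.81 ± 0.13 (SE, adjusted p = 1.17e-07). RRAGC, another Rag GTPase gene, stood at 44.6, 44.0 and 44.0 CPM against 24.5, 21.2 and 24.6, a log2 change of 0.91 ± 0.06 (adjusted p = 4.7e-08). RRAGA, which pairs with either of them, had 65.9 to 72.0 CPM against 66.8 to 68.9 (log2 change 0.02, adjusted p = 0.858), so its groups overlapped.

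FLCN encodes folliculin, which acts on RRAGC and RRAGD, and FNIP1 its binding partner. FLCN was at 55.2, 49.3 and 51.5 CPM against 23.9, 25.2 and 25.0, and FNIP1 at 64.0, 65.2 and 60.7 against 31.1, 26.7 and 30.5. Both were higher at the high dose, by 1.07 ± 0.06 (adjusted p = 4.45e-09) and 1.10 ± 0.06 (adjusted p = 7.33e-09) on the log2 scale. FNIP2 rose by 0.45. The transcription factor gene MITF went the other way, with 9.92, 10.1 and 10.4 CPM against 13.6, 10.7 and 13.4 (-0.32 ± 0.09, adjusted p = 0.0302), a call lost in 7 of 17 alternatives, among them the fit of all 59 libraries, DESeq2 and leaving out any single library of either dose except low dose replicate 2. In all, 5 of the 10 genes on this list rose, 1 fell and the median log2 change was 0.26. The count of rises was 5 in the fit of all 59 libraries too, and RRAGD, FNIP1, FLCN and RRAGC were called in every alternative run.

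Lysosomal enzymes and membrane proteins rose as a group, with 15 of 24 called higher, 0 lower and a median log2 change of 0.34 (9 in the fit of all 59 libraries). NEU1, the lysosomal sialidase, led them at 38.8, 39.2 and 38.9 CPM against 13.1, 14.6 and 14.2, which is 2.79-fold (log2 change 1.48 ± 0.06, adjusted p = 1.18e-10). The 3 high dose libraries were nearly alike and lay far above the low dose. The protease CTSL was at 344, 363 and 350 CPM against 187, 207 and 197 (0.84 ± 0.05, adjusted p = 5.65e-09). NPC2, which hands cholesterol out of the lysosome together with NPC1, was at 69.1, 66.1 and 75.1 CPM against 40.3, 41.5 and 39.8 (0.79 ± 0.05, adjusted p = 5.86e-08). CTSA, the protective protein that stabilises NEU1, rose 1.45-fold. TPP1, ASAH1, NPC1, CTSD, LAMP2, CTSB, HEXA and LAMP1 rose by between 0.23 (LAMP1) and 0.59 (TPP1) on the log2 scale. The calcium channel gene MCOLN1 had a log2 change of 0.16 (adjusted p = 0.235).

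The proton pump that acidifies lysosomes, the V-ATPase, moved in the same direction by smaller steps. Of 15 subunit and accessory genes 12 were called higher and 0 lower, with a median of 0.24. ATP6V1H, a regulatory subunit of the catalytic domain, was at 36.0, 34.9 and 36.4 CPM against 25.6, 27.1 and 27.1 (0.43 ± 0.05, adjusted p = 2.21e-05), and ATP6V0B, of the membrane domain, at 50.7, 50.7 and 53 against 37.5, 39.3 and 40.0 (0.40 ± 0.05, adjusted p = 1.87e-05). The doses did not overlap in either gene. For ATP6V0B the vehicle libraries were at 46.2 to 50.2 CPM, nearer to the high than to the low dose. The calls depended on the libraries that set the spread: 0 members were called in the fit of all 59 libraries and 6 without the 4 antisense-rich libraries.

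Autophagy genes were mixed, with 3 of 14 higher and 1 lower (28.6% called, against 9.7% of all tested genes). SQSTM1, the autophagy receptor p62 and itself among the most abundant transcripts, was at 1620, 1650 and 1640 CPM against 782, 819 and 774, 2.07-fold (1.05 ± 0.04, adjusted p = 1.81e-10). The gap between the dose groups was many times the range within either. UVRAG (0.45) and OPTN (0.37) rose as well, while GABARAPL1, a ubiquitin-like autophagosome protein, fell by 0.23, a call lost in the fit of all 59 libraries and without high dose replicate 2 or low dose replicates 1 or 2.

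Several of these genes have the core of the TFEB element before their start, and 5 stretches are shown so that its letters and their number can be seen beside the expression values. They were picked by hand among genes called higher that have the 7-letter motif TCACGTG outside annotated exons. Each runs from 180 bases before the RefSeq transcript start down to the start or to the nearest GENCODE 29 exon, on the gene's strand. Matches on either strand are in capitals (RefSeq sequence, GRCh38.p14). The matches carry CACGTG, a general E-box that many other factors also bind.
NEU1: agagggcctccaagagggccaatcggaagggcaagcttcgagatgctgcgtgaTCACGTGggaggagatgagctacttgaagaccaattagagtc
FNIP1: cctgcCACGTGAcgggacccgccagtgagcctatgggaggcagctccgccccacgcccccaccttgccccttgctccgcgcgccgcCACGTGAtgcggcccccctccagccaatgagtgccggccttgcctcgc
GNPDA1: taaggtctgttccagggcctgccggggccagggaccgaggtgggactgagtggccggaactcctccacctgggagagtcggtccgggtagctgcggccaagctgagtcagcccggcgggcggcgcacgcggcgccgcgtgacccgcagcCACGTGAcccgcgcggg
RRAGC: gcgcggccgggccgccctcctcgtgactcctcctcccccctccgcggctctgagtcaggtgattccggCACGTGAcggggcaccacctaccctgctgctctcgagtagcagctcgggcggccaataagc
LAMP1: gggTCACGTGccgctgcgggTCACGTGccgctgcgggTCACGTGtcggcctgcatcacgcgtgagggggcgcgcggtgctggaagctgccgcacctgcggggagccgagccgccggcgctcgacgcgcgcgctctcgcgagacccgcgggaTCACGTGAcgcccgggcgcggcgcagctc
These stretches lie at chr6:31862907-31863001 (NEU1, minus strand), chr5:131797064-131797197 (FNIP1, minus), chr5:142013042-142013207 (GNPDA1, minus), chr1:38859824-38859952 (RRAGC, minus) and chr13:113297059-113297238 (LAMP1, plus). Within the printed sequences LAMP1 has 4 runs of capitals and FNIP1 2. LAMP1 also holds TCACGTG outside or at the edge of its printed part, with first bases at -193 and -2 relative to the start.

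Across the genome, 1043 of 27305 RefSeq promoter windows (250 bases before to 50 after the start, the first listed window of each gene) held TCACGTG on either strand, or 3.82%. That base includes genes that were not tested, and among tested genes with a window 664 of 11423 held it. Of the lysosomal list 16 members had a window and 5 held the motif (CTSA, CTSD, LAMP1, NEU1 and MCOLN1), or 31.2%. Of the V-ATPase list 3 of 10 did (ATP6V1G1, ATP6V0B and ATP6V0D1), and of the Rag and folliculin list 3 of 8 (RRAGB, RRAGC and FNIP1). In the cholesterol list described below 3 of 18 did (LSS, SC5D and INSIG1), and 0 of 19 among NRF2 targets. Holding TCACGTG did not go with a call throughout, since RRAGB (log2 change 0.07, adjusted p = 0.783), MCOLN1 and ATP6V1G1 (0.16, adjusted p = 0.177) were not called. Among the 15 largest rises 4 of 12 with a window held it (FNIP1, GNPDA1, NEU1 and RAB29), and among the 15 largest falls 0 of 13. Over all 11423 tested genes with a window, 667 were called higher (5.84%) and 530 lower (4.64%). Over the 664 of them that hold TCACGTG, 126 were called higher (19%) and 16 lower (2.41%), with a median log2 change of 0.07. For the other motifs scanned, the share called higher ran from 3.97% (TTTGAA) to 12.9% (CACGTG, which lies within TCACGTG). This is a description with no test, a match is not evidence of binding, and UAP1L1 and RRAGD were not in the promoter table.

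Among called genes that the naming rule allows, with a mean of at least 5 CPM at either dose, the largest rise was that of UAP1L1. It is a relative of the enzyme that makes UDP-N-acetylglucosamine (chr9:137077501-137084539, plus strand, GRCh38, GENCODE 29). It was at 28.0, 24.7 and 24.5 CPM at the high dose and at 6.27, 6.65 and 6.51 at the low dose, 3.97-fold (1.99 ± 0.08, adjusted p = 1.14e-10). Vehicle was at 4.89 to 5.68 CPM and the medium dose at 6.51 to 7.14, so UAP1L1 was far higher in the high dose libraries than in any of the other 9. GNPDA1, a deaminase of glucosamine phosphate, was at 119, 118 and 122 CPM against 55.2, 51.7 and 55.5 (1.14 ± 0.04, adjusted p = 1.14e-10). GNPDA1 and the enzyme that UAP1L1 resembles both act on amino sugars.

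Further large rises had varied roles. STX3, a syntaxin of membrane fusion, rose 2.13-fold, RAB29, a Rab GTPase of the Golgi and lysosomes, 2.08-fold, HS1BP3 2.14-fold and MCTP1, a C2 domain protein of the endoplasmic reticulum, 2.81-fold. HSD17B14, a steroid dehydrogenase, rose 2.40-fold and CDCP1, a transmembrane substrate of Src kinases, 2.38-fold. CD68, known as a macrophage marker and itself a lysosomal membrane glycoprotein, was at 21.5, 27.9 and 17.6 CPM against 7.92, 8.10 and 9.37 (1.40 ± 0.14, adjusted p = 3.9e-06). It carried the summed level of the 15 markers of other cell types, 18.8 to 29.4 CPM at the high and 9.54 to 11.1 at the low dose, and 4 and 2 of these markers were at 0 in all libraries of the group. The T cell gene CD3E was at 0 in both groups, and the leukocyte gene PTPRC at a mean of 0.012 and 0.0108 CPM. RAP1GAP, which inactivates the GTPase Rap1, rose 1.92-fold. STX3, RAB29, HS1BP3, MCTP1, HSD17B14, CDCP1, CD68 and RAP1GAP were called in every alternative run.

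Genes of cholesterol synthesis rose together. Of 25 genes 19 were called higher and 0 lower, with a median of 0.27 (8 in the fit of all 59 libraries). INSIG1, which retains the SREBP complex in the endoplasmic reticulum and is itself an SREBP target, was at 46.1, 44.7 and 49.4 CPM against 30.3, 30.5 and 32.6, 1.5-fold (0.59 ± 0.06, adjusted p = 2.42e-06). The sterol oxidase gene MSMO1 was at 55.1, 55 and 58.7 CPM against 37.4, 34.8 and 40.4 (0.58 ± 0.06, adjusted p = 5.41e-06), and SQLE, squalene epoxidase, at 172, 175 and 174 against 124, 124 and 128 (0.47 ± 0.04, adjusted p = 6.32e-07). High dose libraries lay above all low dose libraries in each of these. HMGCS1, at the entry of the pathway, rose by only 0.19 and its high dose libraries (190 to 208 CPM) overlapped with vehicle (197 to 205 CPM).

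Targets of the LXR receptors fell, with 5 of 7 called lower, 0 higher and a median of -0.44 (3 in the fit of all 59 libraries). ABCA1, which exports cholesterol to apolipoproteins, was at 5.39, 5.55 and 5.19 CPM against 11.5, 8.58 and 10.6 (-0.93 ± 0.11, adjusted p = 1.94e-05, lost in the fit of all 59 libraries). Its high dose libraries lay below every low, medium and vehicle library. MYLIP, a ubiquitin ligase that limits sterol uptake, was at 2.43, 2.56 and 2.65 CPM against 4.40, 3.99 and 4.62 (-0.77 ± 0.12, adjusted p = 0.00037). SREBF1, which encodes SREBP1, fell by 0.44 and LPCAT3, a phospholipid acyltransferase, by 0.31. ABCG1, a further sterol exporter that the naming rule did not choose, had the lowest level of them, with means of 0.253 against 0.697 CPM (-1.45, adjusted p = 0.0114). Fatty acid synthesis and desaturation had 3 of 11 higher and 1 lower, 36.4% of members against 9.7% of all tested genes (0 of either in the fit of all 59 libraries). The fatty acid synthase gene FASN was at 562 to 618 CPM against 556 to 604 (0.03, adjusted p = 0.857).

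Targets of the aryl hydrocarbon receptor (AhR), which senses planar plant and combustion compounds, rose in 4 of the 5 genes tested with a median of 0.94, and all 4 calls stood in every alternative. CYP1A1, its classic target, was low throughout at 3.05, 3.57 and 2.21 CPM against 0.647, 1.05 and 0.996 (1.72 ± 0.24, adjusted p = 0.000104). CYP1B1, with the values given above, had a log2 change of 1.00 ± 0.04 (adjusted p = 1.14e-10). TIPARP, a feedback inhibitor of the receptor, was at 60.7, 68.3 and 63.6 CPM against 35.0, 33.3 and 35.1 (0.90 ± 0.05, adjusted p = 1.16e-08), and AHRR, the receptor's repressor, at 6.50, 5.15 and 5.23 against 3.17, 3.06 and 2.56 (0.94). In all 4 the dose groups were apart.

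**Figure D3:**
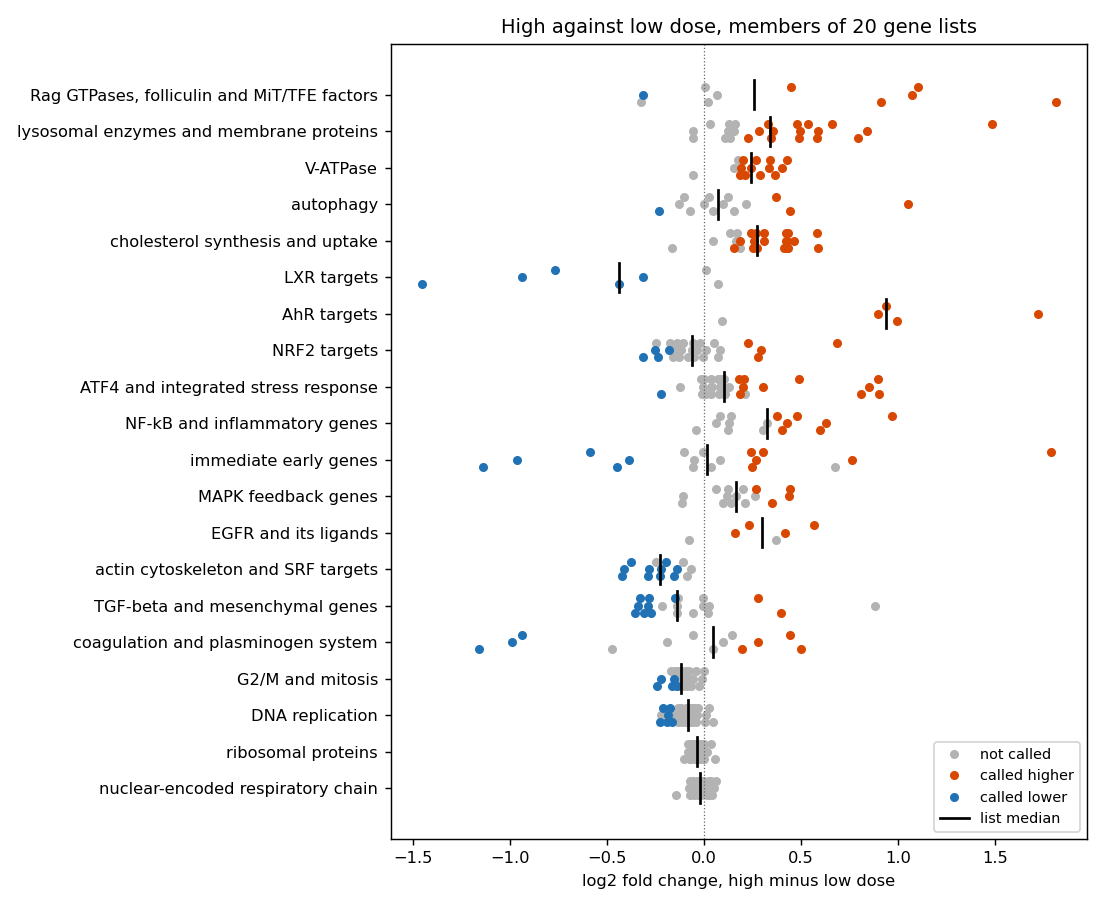
Log2 fold change of the high minus the low dose (horizontal axis) for the tested members of 20 gene lists, 1 point per gene, coloured by call, with the list median as a black bar. Lysosomal, V-ATPase, cholesterol and AhR lists sit to the right of 0, LXR and actin lists to the left, and ribosomal proteins and the respiratory chain have 0 called members.

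Stress genes moved in part. Of 31 tested genes of the ATF4 programme, the transcriptional response to amino acid shortage and other stress, 10 rose and 1 fell (35.5%), with a median of 0.10 (3 higher and 0 lower in the fit of all 59 libraries, 5 higher without the 4 antisense-rich libraries). GDF15, a secreted stress hormone, was at 41.7, 43.9 and 39.6 CPM against 21.5, 23.0 and 22.4 (0.90 ± 0.06, adjusted p = 4.7e-08). DDIT3, which encodes CHOP, was at 16.9, 17.6 and 17.2 CPM against 8.34, 9.71 and 9.76 (0.90 ± 0.08, adjusted p = 1.9e-06), and the pseudokinase gene TRIB3 at 107, 112 and 107 against 59.5, 62.6 and 64.3 (0.81 ± 0.05, adjusted p = 2.32e-08). ATF4 itself had 273 to 290 against 252 to 282 CPM (0.09, adjusted p = 0.352), and the amino acid transporter SLC7A5 fell by 0.22. Of 18 aminoacyl-tRNA synthetases 1 was called (5.56%, against 9.7% of all tested genes). It was AARS1, which rose by 0.19, a call lost in 5 of 17 alternatives, the fit of all 59 libraries among them.

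Targets of the antioxidant factor NRF2 had 4 of 27 higher and 4 lower, with a median of -0.06 (1 and 0 in the fit of all 59 libraries). That is 29.6% of members, against 9.7% of all tested genes. HMOX1, heme oxygenase, was at 219, 237 and 223 CPM against 146, 137 and 138 (0.69 ± 0.05, adjusted p = 2.23e-07), and vehicle was at 160 to 177. NQO1, a quinone reductase often used to read NRF2, had 1500 to 1650 CPM against 1450 to 1580 (0.05, adjusted p = 0.66). Its vehicle mean was 1620 CPM, so it was already abundant without extract. The 3 other risers were both ferritin genes, FTL and FTH1, by 0.28 and 0.29 (each has processed copies in the genome that can share reads), and NR0B1, while EPHX1, AKR1B10, AKR1C2 and UGDH fell by 0.18 to 0.31. Iron and heme genes as a list had 5 of 13 higher and 2 lower, 53.8% of members (1 and 0 in the fit of all 59 libraries). Endoplasmic reticulum chaperones (1 higher, 2 lower of 20), heat shock proteins (0 and 1 of 17) and p53 targets (2 and 1 of 23) had 15.0%, 5.88% and 13.0% of members called, against 9.7% of all tested genes, and 0 in the fit of all 59 libraries. The metallothionein gene MT2A rose 1.48-fold, a call lost in that fit.

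Immediate early genes, which cells switch on within minutes of a stimulus, moved both ways. EGR1, a zinc finger factor induced by MAPK signalling, was at 5.06, 6.77 and 3.61 CPM against 1.84, 1.29 and 1.3 (1.79 ± 0.23, adjusted p = 5.74e-05), and FOSL1 at 49.3, 54.1 and 40.1 against 28.7, 28.6 and 27.2 (0.76 ± 0.09, adjusted p = 1.73e-05). The orphan nuclear receptor genes fell instead: NR4A1 was at 21.4, 20.3 and 19.8 CPM against 41.6, 41.8 and 36.5 (-0.96 ± 0.06, adjusted p = 5.86e-08) and NR4A3 at 3.5, 3.67 and 3.97 against 8.57, 8.14 and 7.90 (-1.14 ± 0.10, adjusted p = 1.75e-06). Neither pair of dose groups overlapped, and NR4A2 fell as well, by 0.59. In total 6 of 18 rose and 5 fell (61.1% called, against 9.7% of all tested genes), with a median of 0.02, while in the fit of all 59 libraries 1 rose and 2 fell. FOS was at 3.28 to 3.75 against 3.38 to 3.95 CPM (adjusted p = 0.885).

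Around the EGF receptor, 4 of 6 genes rose: the ligand genes TGFA (7.49, 8.07 and 7.51 against 5.24, 5.00 and 5.31 CPM), EREG (1.34-fold) and AREG (1.12-fold), and EGFR itself (1.17-fold). The count was 0 in the fit of all 59 libraries, the AREG call was lost in 12 of 17 alternatives, and the EGFR call in 6. Feedback genes of the MAPK pathway had 4 of 15 higher (26.7%, against 5.46% of all tested genes) and 0 lower (1 in the fit of all 59 libraries). The phosphatase gene DUSP4 was at 179, 190 and 168 CPM against 129, 133 and 132 (0.45 ± 0.05, adjusted p = 8.37e-06). NF-kB and inflammatory genes had 7 of 15 higher and 0 lower, with a median of 0.33 (1 in the fit of all 59 libraries). BIRC3, an inhibitor of apoptosis, was at 54.7, 58.2 and 50.9 CPM against 36.6, 33.6 and 37.9 (0.60 ± 0.06, adjusted p = 3e-06). The chemokine genes CXCL5 (1.39-fold) and CXCL8 rose, the latter from 0.938, 1.21 and 1.03 to 1.69, 2.77 and 1.69 CPM, a call lost without high dose replicate 2 and in the fits of 59 and 55 libraries.

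Fibrinogen, the clotting protein made mainly by the liver, was among the strongest falls. Its 3 chain genes lie side by side on chromosome 4, FGB at chr4:154562956-154571086, FGA at chr4:154583126-154590766 and FGG at chr4:154604134-154612967 (GRCh38, GENCODE 29). FGB was at 72.7, 63.6 and 91.6 CPM against 164, 168 and 176 (-1.16 ± 0.09, adjusted p = 1.94e-07), FGA at 78.3, 67.9 and 91.8 against 150, 149 and 156 (-0.94 ± 0.07, adjusted p = 3.48e-07), and FGG at 43.3, 36.3 and 51.4 against 85.4, 81.5 and 92.6 (-0.99 ± 0.09, adjusted p = 1.03e-06). In all 3 genes high dose replicate 2 was lowest and replicate 3 highest, and no high dose library reached the low dose range. These 3 were the falls among 13 coagulation and plasminogen genes, of which 4 rose (3 falls and 1 rise in the fit of all 59 libraries). PLAU, the urokinase gene, rose 1.41-fold and SERPINE2, a protease inhibitor, 1.36-fold. VTN, the plasma adhesion protein vitronectin, fell to 0.556 of the low dose.

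KRT4, an epithelial keratin (chr12:52806549-52814551, minus strand), had the deepest fall among called genes that the naming rule allows, with at least 5 CPM at either dose. It was at 11.9, 10.0 and 15.8 CPM against 30.3, 31.8 and 32.5 (-1.33 ± 0.11, adjusted p = 4.07e-07). H19, an imprinted long noncoding RNA, was at 42.1, 35.1 and 48.9 CPM against 96.1, 110 and 88.3 (-1.22 ± 0.09, adjusted p = 2.37e-07). SULT2B1, a cholesterol sulfotransferase, fell to 0.465, TM4SF4 to 0.484 and C1orf116 to 0.487 of the low dose. HNF4A, a liver and gut transcription factor and chosen here after its value was seen, had means of 72.1 against 124 CPM (-0.78, adjusted p = 1.03e-07). KRT4, H19, SULT2B1, TM4SF4 and C1orf116 were called in every alternative run, and HNF4A was not examined there.

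Of 8 tested keratins on a list that does not hold KRT4, 3 were called lower (KRT8, KRT18 and KRT80) and 0 higher, with a median of -0.03 and 0 calls in the fit of all 59 libraries. The share called lower was 37.5%, against 4.23% of all tested genes. KRT8 and KRT18, the paired simple keratins, were at 2390, 2500 and 2530 against 3440, 3650 and 3250 CPM and at 1630, 1730 and 1690 against 2410, 2460 and 2370. Their log2 changes were -0.48 ± 0.05 (adjusted p = 1.35e-05) and -0.52 ± 0.05 (adjusted p = 5.71e-06), with no overlap, and both calls were lost in the fit of all 59 libraries. The cadherin gene CDH1 fell by 0.57 and FOXA2 by 0.28, so that 4 of the 7 tested A549 markers were lower, and the summed level of all 10 was 5889 to 6483 CPM at the high dose, 7723 to 8361 at the low dose and 8217 to 8554 in vehicle. The part of these markers in the other results was not tested. KRT15, KRT19 and KRT86 had log2 changes of 0.51, 0.20 and 0.16 with adjusted p of 0.405, 0.0714 and 0.746. KRT7 was at 1800 to 2180 against 2010 to 2160 CPM (adjusted p = 0.86). Fewer cells of a kind and less RNA per cell cannot be told apart in such bulk samples.

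Of 14 actin and SRF target genes 10 were called lower and 0 higher, with a median of -0.22 (1 in the fit of all 59 libraries, 5 without the 4 antisense-rich libraries). ACTB, beta-actin, was at 4960, 5050 and 4930 CPM against 5550, 6240 and 5640 (-0.22 ± 0.05, adjusted p = 0.00842), and CNN2, a calponin, at 76.1, 77.5 and 76.2 against 98.4, 112 and 94.9 (-0.41 ± 0.05, adjusted p = 7.95e-05). In both genes the dose groups were apart. TGF-beta and mesenchymal genes had 8 of 20 lower and 2 higher. The collagen gene COL5A1 fell by 0.36 and the cadherin gene CDH2 by 0.29 on the log2 scale, while LOXL2, a collagen cross-linking enzyme, rose by 0.40. In the fit of all 59 libraries that list had 0 calls in either direction. YAP and TEAD targets had 3 of 13 higher and 4 lower (53.8% called, against 9.7% of all tested genes), again with 0 in the fit of all 59 libraries.

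Of 27 genes of G2/M and mitosis 5 fell and 0 rose (median -0.12), and of 34 DNA replication genes 6 fell and 0 rose (median -0.08). These are 18.5% and 17.6% of members, against 4.23% of all tested genes called lower. KIF20A, a mitotic kinesin, was at 68.2, 72.4 and 71.6 CPM against 81.9, 90.7 and 78.9 (-0.24 ± 0.05, adjusted p = 0.00496). TK1, thymidine kinase, was at 113, 113 and 118 CPM against 132, 132 and 134 (-0.21 ± 0.04, adjusted p = 0.00262). In the fit of all 59 libraries these counts were 0 and 1.

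FOXO and glucose-sensing targets had 4 of 11 higher and 1 lower, 45.5% of members against 9.7% of all tested genes (2 and 0 in the fit of all 59 libraries). They were led by KLHL24 (1.88-fold) and CCNG2 (1.72-fold), and PDK4, a brake on pyruvate use, rose 1.42-fold. Circadian clock genes had 4 of 14 higher and 1 lower, 35.7% of members (1 and 0 in the fit of all 59 libraries). PER3 was at 7.20, 7.49 and 5.81 CPM against 4.11, 4.11 and 4.32 and PER2, its relative, at 26.0, 24.7 and 24.7 against 40.5, 38.4 and 38.1. Both are repressors of the clock, and they moved in opposite directions without overlap, by 0.71 ± 0.11 (adjusted p = 0.000468) and -0.63 ± 0.06 (adjusted p = 1.23e-06). Glucocorticoid receptor targets had 1 of 8 higher and 4 lower, 62.5% of members (0 and 1 in the fit of all 59 libraries), with KLF9 at 3.54, 2.95 and 3.46 CPM against 6.21, 5.60 and 6.04 (-0.85 ± 0.12, adjusted p = 0.00013). The glycolysis list held ENO2, an enolase, at 58.7, 59.8 and 53.5 CPM against 29.7, 32.0 and 32.3 (0.87 ± 0.05, adjusted p = 2.34e-08), among 2 higher and 2 lower of 27 (1 and 0 in the fit of all 59 libraries). That is 14.8% of the glycolysis list, against 9.7% of all tested genes. Matrix metalloproteinases and their inhibitors had 2 of 8 lower, 25.0% against 4.23% of all tested genes called lower (1 in the fit of all 59 libraries). Among them was TIMP3, an inhibitor, at 5.06, 4.83 and 5.56 CPM against 7.5, 8.22 and 7.7. Tubulins had 1 of 11 higher and 3 lower, apoptosis regulators 1 of 17 each way, interferon-stimulated genes 1 of 14 each way, ribosome biogenesis 1 of 22 lower and nuclear long noncoding RNAs 2 of 17 higher and 1 lower. In that order, 36.4%, 11.8%, 14.3%, 4.55% and 17.6% of tested members were called, against 9.7% of all tested genes. In the fit of all 59 libraries these 5 lists had 2 calls in all, 1 higher among the apoptosis regulators and 1 lower among the long noncoding RNAs. No member was called among 27 nuclear-encoded respiratory chain genes, 13 mitochondrially encoded genes, 40 ribosomal proteins and 5 tested xenobiotic transporter and PXR or CAR target genes.

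Aconiti Lateralis Radix Preparata is the other extract in the same library set, by the first number of the sample codes, and it allows a test of whether the dose difference differed between extracts. In a fit of the 17 libraries of both extracts, 655 of 17243 genes (3.8%) had a high minus low difference that differed between the extracts, at doses of 500 and 20 µg/mL for Aconiti Lateralis Radix Preparata. They were 377 with a more positive difference for Bupleuri Radix and 278 with a more negative one. The doses are not matched in µg/mL. UAP1L1 changed by 1.99 ± 0.09 with Bupleuri Radix and by 0.28 ± 0.10 with Aconiti Lateralis Radix Preparata, where it was at 8.82, 7.64 and 8.11 against 5.68, 7.70 and 6.91 CPM. The difference of 1.71 ± 0.13 had an adjusted p = 1.35e-07.

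NEU1 differed by 1.26 ± 0.09 between the extracts (adjusted p = 4.15e-08), RRAGD by 1.25 ± 0.20 (adjusted p = 0.000384) and SQSTM1 by 0.73 (adjusted p = 5.88e-07). Within Aconiti Lateralis Radix Preparata these 3 changed by 0.22, 0.57 and 0.32. The difference for CTSL was -0.09 (adjusted p = 0.628), for CD68 0.49 (adjusted p = 0.261) and for TRIB3 -0.02 (adjusted p = 0.961), none of which passed the test.

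ABCA1 went in opposite directions. With Aconiti Lateralis Radix Preparata it was at 15.8, 17.6 and 17.8 CPM at the high and 10.1, 10.5 and 11.4 at the low dose, a rise of 0.68 ± 0.09, against -0.94 ± 0.11 in the same fit with Bupleuri Radix. The difference was -1.62 ± 0.14 (adjusted p = 4.09e-07). RAP1GAP likewise rose with Bupleuri Radix and was lower at the high dose of the other extract (-0.25, adjusted p = 0.0317), a difference of 1.20 ± 0.11 (adjusted p = 5.88e-07).

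Other genes had the larger rise with Aconiti Lateralis Radix Preparata. CXCL8 was at 23.8, 18.3 and 18.3 CPM with Aconiti Lateralis Radix Preparata at its high dose and at 0.838, 0.716 and 0.931 at its low dose, a log2 change of 4.60 ± 0.17, and the extracts differed by -3.63 ± 0.31 (adjusted p = 4.45e-07). EGR1 differed by -1.73 ± 0.32 (adjusted p = 0.00201) and FOSB by -1.71 ± 0.27 (adjusted p = 0.000458), and both calls were lost when the fit took in all 59 or 55 libraries. KRT4 fell more with Aconiti Lateralis Radix Preparata, by 2.52 on the log2 scale, a difference of 1.19 ± 0.15 (adjusted p = 3.86e-05).

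**Figure D4:**
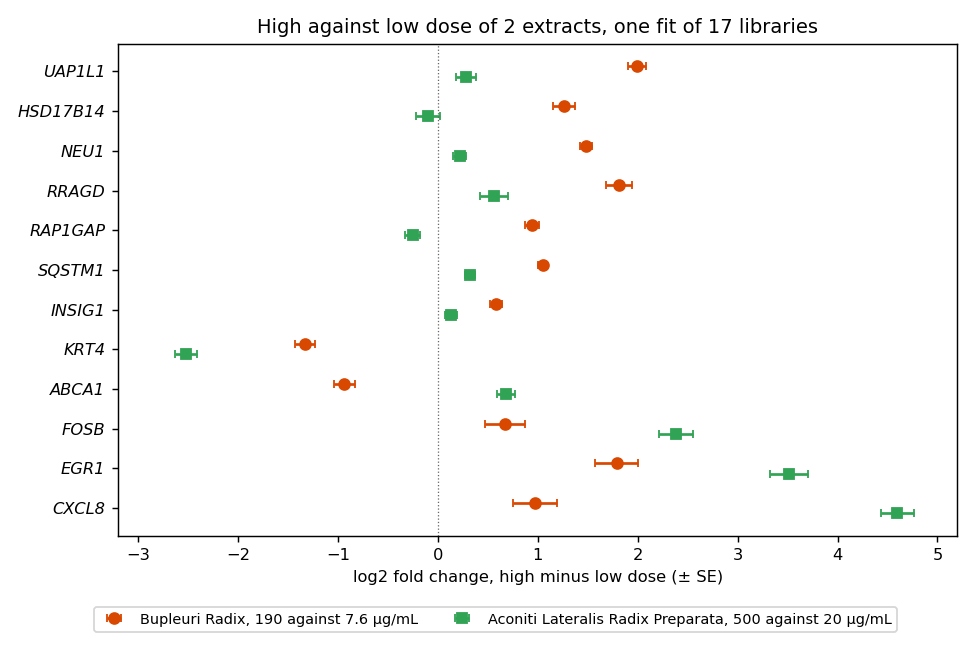
Log2 fold change of the high minus the low dose, with its SE, for 12 genes under Bupleuri Radix (circles, 190 against 7.6 µg/mL) and Aconiti Lateralis Radix Preparata (squares, 500 against 20 µg/mL), from one fit of 17 libraries. UAP1L1, NEU1 and RRAGD lie further right for Bupleuri Radix, EGR1, FOSB and CXCL8 for the other extract, and ABCA1 lies on opposite sides of 0.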

How the data were processed

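Messenger RNA of A549 cells was sequenced with strand-specific libraries, per the labels. The deposited table holds RSEM expected counts per gene, made by the authors on hg38 with RSEM 1.3.3 and STAR 2.7.3a after Trim Galore 0.6.5 and FastQC 0.11.9, per the submitters' processing notes. The annotation release was not given in these sources. Another 210 columns were not used. Expected counts were rounded, scaled by TMM over all 59 libraries, filtered with filterByExpr (minimum count 10, minimum total 15) and tested with edgeR 4.0.16 (R 4.3.3, quasi-likelihood, Benjamini-Hochberg, threshold 0.05) in a fit of the 9 Bupleuri Radix libraries with 6 residual degrees of freedom. Log2 changes are given with SE, and steps were tested on simulated data. The extracts were compared in 17 libraries. DESeq2 1.42.0, other filters, scalings and library sets, a replicate block and leaving out single libraries were alternatives. Named genes are the 15 largest called rises and falls whose dose groups do not overlap and whose higher mean is at least 5 CPM, up to 4 called members per list and direction, the first member of each list, and the largest differences in the other comparisons. Rankings left out pseudogenes and genes with clone-style, LOC, ENSG or LINC names. Further list members are given only to complete a list's count. The comparison, lists and tests were chosen with earlier results of these data known. The vehicle has its own sample code, so code set and treatment cannot be told apart there, and its DMSO content differs between the labels and the series text. Gene positions are from GENCODE 29 (GRCh38), which held 94.03% of the gene IDs. Some genes of these lists are counted but not reported here by name.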

Additional observations from a re-analysis of the deposited data

Results flagged for a closer look

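The high minus low dose difference was tested against that of Aconiti Lateralis Radix Preparata, and 655 genes passed. Among the genes chosen by rule, the difference on the log2 scale was more positive for Bupleuri Radix in UAP1L1 (1.71), HSD17B14 (1.36), NEU1 (1.26), RRAGD (1.25) and RAP1GAP (1.20). It was more negative in CXCL8 (-3.63), EGR1 (-1.73), FOSB (-1.71), ABCA1 (-1.62) and TVP23C-CDRT4 (-4.55, adjusted p = 0.0213 by edgeR). TVP23C-CDRT4 is a readthrough gene that shares exons with its neighbours, so its counts are uncertain. It was at 0.420, 8.94 and 6.28 CPM in the low dose libraries and 0.988, 0.864 and 0.662 in the high dose libraries, which overlap. Its call was lost in the fits of 59 and 55 libraries, without Bupleuri Radix high dose replicate 3 or low dose replicate 2 or 3, and without Aconiti Lateralis Radix Preparata high dose replicate 1 or low dose replicate 2, where the difference ran from -4.57 to -3.93. The EGR1 and FOSB calls were lost in the fits of 59 and 55 libraries. The 2 extracts differ in dose as well as in kind, and these cannot be told apart.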

How the results depend on the processing

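The number of genes called depended most on which libraries set the spread. With all 59 libraries in the fit, 294 genes were called between the high and low dose, 189 between high and medium and 59 between the extracts. With 55 libraries the numbers were 1010, 746 and 304. Called genes were higher in 56.4% between high and low dose, and in 64.6% in the fit of 59 libraries. Between medium and low dose, 101 genes were called with no filter on low counts and 2 by DESeq2, against 0 in the other alternatives. Leaving out single libraries gave 1106 to 1628 genes for high against low, 804 to 988 for high against medium, 481 to 717 between the extracts and 0 for medium against low. High against medium fell to 814 without high dose replicate 1, 804 without high dose replicate 2 and 819 without medium dose replicate 3. With a replicate block the counts were 1580, 0, 1240 and 660 for high against low, medium against low, high against medium and the extracts. Same-numbered libraries had correlations of deviations of -0.0156, -0.1157 and 0.0478 for high and low, -0.0511, -0.0309 and -0.0172 for high and medium, and 0.0974, 0.0692 and 0.0415 for medium and low. Differently numbered libraries had -0.094 to 0.0977 for high and low, -0.0074 to 0.0369 for high and medium, and -0.067 to 0.0068 for medium and low. The numbers were not taken as pairs in the main fit. Leaving medium dose library 1 out, chosen after seeing the data, gave 1530. Of 167 called genes among the 191 named, 60 were called in every alternative, 53 lost their call only in the fit of 59 libraries, and 0 changed sign. Genes named above that lost their call without a single library include MITF, GABARAPL1, CXCL8, AREG, EGFR, AARS1, FTL, AKR1C2 and UGDH. Genes of a few CPM have the widest errors.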
